A study of Mus musculus with 12 samples.

Results

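The SLC25 family is the family of mitochondrial carriers, taken here as the genes whose symbol is Slc25a followed by a number. The rule found 47 of the 41325 genes in the deposited tables, all of them annotated as protein coding. RNA sequencing had been done on IMG cells, a mouse line of immortalised microglia, which are the brain's own macrophages. All cells were wild type, of C57Bl6/J background and of the same passage, and each group held 4 libraries, 12 in all. One group received a scramble control for 8 h, and the others received a preparation of amyloid beta, named oAb or fAb in the labels, for the same time. Amyloid beta is the peptide that builds up in the brain in Alzheimer's disease. The design text joins the word fibrillar to oAb and oligomeric to fAb, although the abbreviations would read the other way, so the names oAb and fAb are kept below and neither reading is chosen. A single immortalised line stands in for microglia, and no label says that the libraries of a group came from separate cultures. The p-values then measure only the spread between these libraries, which may be technical.

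Mitochondrial carriers are small proteins of the inner mitochondrial membrane. They exchange or co-transport nucleotides, phosphate, amino acids, carboxylates, carnitine esters, metal ions and cofactors between the matrix and the cytosol. Most of them are made in the cytosol and brought into the membrane by the TOM and TIM22 import machinery. In macrophages the family is known for the citrate carrier, whose export of citrate feeds lipid synthesis and inflammatory mediators, and for the aspartate/glutamate carriers of the malate-aspartate shuttle.

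The libraries held between 13638721 and 18124419 counts. All 12 microglia and macrophage markers examined had counts, with a summed level of 5331 to 5859 TPM in scramble, 4069 to 4506 in oAb and 4099 to 4381 in fAb. TPM is a transcript level scaled by gene length and depth. Of the neuronal markers Rbfox3, Snap25 and Syt1 were at 0 and the summed level was 0.139 to 0.716 TPM in scramble, 1.66 to 2.12 in oAb and 1.61 to 2.19 in fAb. Of the oligodendrocyte markers Mog and Mobp were at 0 while Mbp was lower, at -1.31 ± 0.12 (log2 fold change, SE) in oAb (edgeR adjusted p = 1.16e-05) and -1.18 ± 0.11 in fAb (adjusted p = 1.60e-05). Fibroblast markers summed to at most 0.0569 TPM in scramble and to 0.875 to 1.63 TPM in treated libraries, with Pdgfra at 0. The part of these marker levels in the results below was not tested. Scramble library 3 stood apart, since ribosomal protein genes took 11.6% of its counts and 6.75% to 7.36% of those of scramble 1, 2 and 4. Ribosomal protein genes took 5% to 5.67% in the treated libraries. Transcripts of the mitochondrial genome took 4.18% to 4.94% of counts in scramble and 2.73% to 3.37% in treated libraries, and the part of these shares in the carrier changes was not tested. The libraries also fell into 2 sets by the reads assigned to Timm23 and its copy Gm10273. One set held scramble 2, 3 and 4 and oAb 1 and 2, and the other held scramble 1, oAb 3 and 4 and all fAb libraries. Results were therefore also computed without scramble 3, within these sets, and with the set as a term. In fAb against scramble, the value with the set as a term rests on scramble 1 as the single control, as it does within the set. As these are bulk samples, fewer cells of a type and less RNA per cell cannot be told apart.

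Levels of the carriers differed by more than 3 orders of magnitude, and the family was dominated by Slc25a5. This is the ADP/ATP carrier ANT2, which swaps matrix ATP for cytosolic ADP. Its level was 1848 ± 48.0 TPM in scramble (SD, n = 4), 1508 ± 57.2 in oAb and 1561 ± 22.0 in fAb. It made up 50.1% ± 1.01 (SD, n = 4) of the summed TPM of the family in scramble, 48.4% ± 1.77 in oAb and 49.3% ± 0.278 in fAb. Next in scramble came Slc25a39, a carrier needed for mitochondrial glutathione, with 306 ± 55.0 TPM (SD, n = 4). Slc25a4, the ADP/ATP carrier ANT1, had 293 ± 16.2 TPM and Slc25a3, the phosphate carrier, had 290 ± 13.3 TPM. The last 3 levels did not differ beyond their spread. The ADP/ATP and phosphate carriers, which serve ATP synthase, thus took 3 of the 4 highest places.

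**Figure D1:**
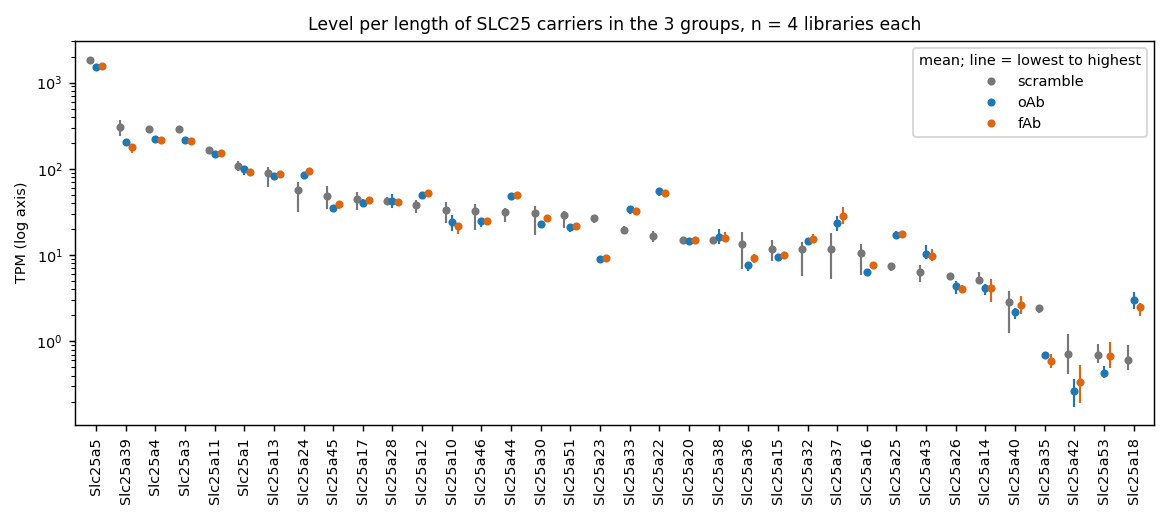
Level of the tested SLC25 carriers, but for 1 not shown, in TPM on a log axis, ranked by the scramble mean; points are means of 4 libraries and lines run from the lowest to the highest library. Slc25a5 lies above all others, near 1848 TPM in scramble. Slc25a22, Slc25a23, Slc25a35 and Slc25a18, among others, show the treated groups apart from scramble, while oAb and fAb overlap.

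The summed level of the family was 3688 ± 42.1 TPM in scramble (SD, n = 4), 3117 ± 56.1 in oAb and 3169 ± 31.9 in fAb. All treated libraries, at 3048 to 3212 TPM, lay below all scramble libraries, at 3632 to 3725. Without Slc25a5 the sum was 1840 ± 37.3 TPM in scramble, 1608 ± 66.2 in oAb and 1608 ± 13.4 in fAb (SD, n = 4). The cause of the lower sum was not tested. TPM carries no correction for composition. For changes in single genes, counts were therefore scaled by TMM and are given as normalised CPM, counts scaled to a common library size.

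Of the 47 carriers, 37 passed the filter on low counts in every comparison. No count was seen in any library for 5 of them: Slc25a21, Slc25a31, Slc25a41, Slc25a48 and Slc25a54, which include the germ-cell ADP/ATP carrier (Slc25a31) and the oxodicarboxylate carrier (Slc25a21). A floor of 3 counts corresponds to 0.166 to 0.220 CPM per library, for counting error only. Another 5 had counts but were too low to test: Slc25a2, Slc25a27, Slc25a29, Slc25a34 and Slc25a47. The highest of these was Slc25a47, with at most 11 counts in a library.

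In oAb against scramble, 10 carriers rose and 6 fell, 16 of 37 tested (43.2%), while 52.2% of all 11033 tested genes were called. In fAb against scramble, 11 rose and 4 fell, 15 of 37 (40.5%), beside 56.3% of all 11074 genes. These are calls at an adjusted p under 0.05 in edgeR's quasi-likelihood test, and the carriers were called no more often than genes at large. Among the carriers rises outnumbered falls, whereas of all genes 25.2% rose and 27.0% fell in oAb, and 27.6% rose and 28.8% fell in fAb. With upper quartile scaling, which moved the median log2 fold change of all genes from -0.07 to -0.24 in oAb and from -0.04 to -0.23 in fAb, the split of the carriers was 9 higher and 12 lower in oAb and 9 higher and 14 lower in fAb. Over all genes it was then 2127 higher and 4015 lower in oAb, and 2273 higher and 4361 lower in fAb. Without scramble 3 the counts were 14 higher and 9 lower in oAb, and 14 higher and 11 lower in fAb. Calls over all genes rose too, to 3503 higher and 3671 lower of 11148 in oAb and to 3819 higher and 3779 lower of 11169 in fAb. The median log2 fold change of the tested carriers was -0.12 in oAb and -0.00 in fAb. The groups did not overlap for 15 carriers in oAb (51.2% of all genes) and 15 in fAb (55.4% of all genes). At an unadjusted p under 0.05 there were 18 carriers in oAb (57.9% of all genes) and 19 in fAb (61.5%). Changes of at least 1 on the log2 scale were called for 7 carriers in oAb, where the share over all genes was 21.5%, and for 6 in fAb, where it was 23.0%.

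Both comparisons use the same scramble libraries. Higher in both were Slc25a12, Slc25a18, Slc25a22, Slc25a24, Slc25a25, Slc25a32, Slc25a33, Slc25a37, Slc25a43 and Slc25a44. Lower in both were Slc25a23, Slc25a35 and Slc25a51. Slc25a16, Slc25a36 and Slc25a42 passed the threshold in oAb and not in fAb, and Slc25a39 in fAb and not in oAb, but none of these 4 passed in the direct test of the preparations given further down. In all, 19 tested carriers passed in neither.

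**Figure D2:**
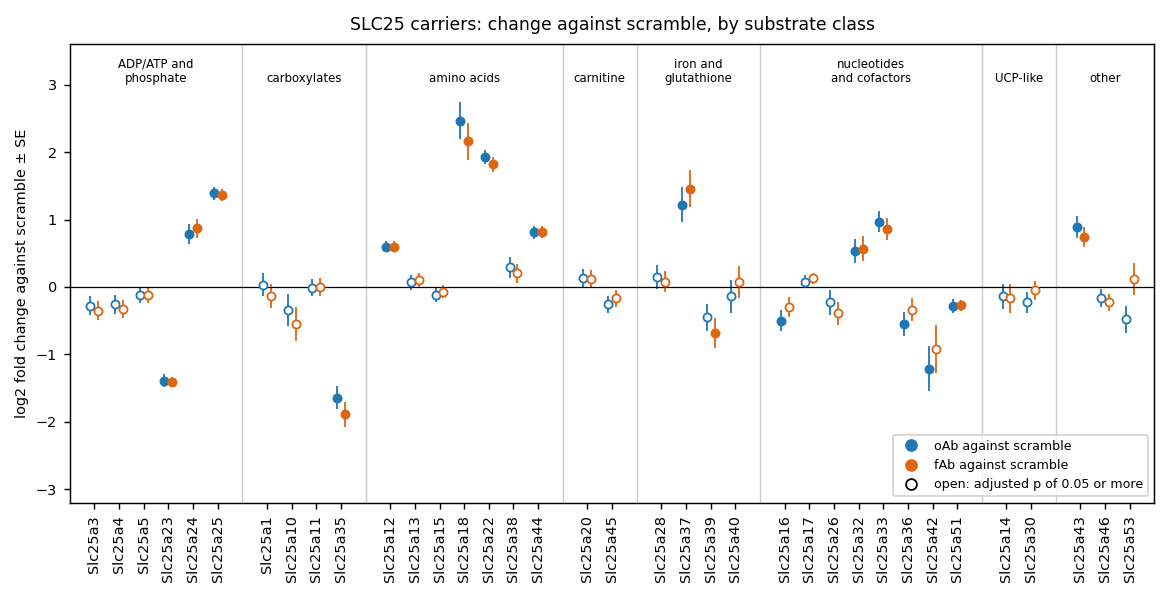
Log2 fold change against scramble (vertical axis, with its standard error) of the tested SLC25 carriers, but for 1 not shown, by substrate class; blue is oAb, orange is fAb, and filled points have an adjusted p under 0.05. The glutamate carriers Slc25a18 and Slc25a22 lie highest, Slc25a35 lowest, and Slc25a23 lies below 0 while Slc25a24 and Slc25a25 lie above.

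Among the amino acid carriers 4 of 7 tested rose in each comparison and none fell, where 25.2% of all genes rose in oAb and 27.6% in fAb. The 4 include Slc25a18, which was tested only through its treated libraries in oAb. The highest fold changes belonged to the 2 glutamate carriers, which take glutamate into the matrix together with a proton. Slc25a22 (ENSMUSG00000019082, chromosome 7, 141429744 to 141437892, mm10) had 30.5, 34.8, 34.4 and 31.6 normalised CPM in scramble 1 to 4. It had 130, 125, 112 and 133 in the oAb libraries and 108, 94.8, 123 and 125 in the fAb libraries. The groups did not overlap, and the lowest treated library was well above the highest control. Slc25a22 was 3.81-fold higher in oAb (log2 fold change 1.93 ± 0.10 SE, edgeR adjusted p = 2.40e-07) and 3.52-fold higher in fAb (1.82 ± 0.11 SE, adjusted p = 1.04e-06). In TPM it went from 16.6 ± 2.00 (SD, n = 4) to 55.5 ± 4.88 in oAb and 52.9 ± 4.53 in fAb.

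Slc25a18 (ENSMUSG00000004902, chromosome 6, 120773578 to 120794336) is the scarcer glutamate carrier. It had 0.262, 0.361, 0.362 and 0.558 normalised CPM in scramble, from only 5, 6, 5 and 9 counts. The oAb libraries had 2.56, 2.11, 1.71 and 2.22 CPM and the fAb libraries 1.28, 1.68, 1.90 and 1.95. Every treated library lay above every control, at 22 to 39 counts. The log2 fold change was 2.47 ± 0.27 (SE) in oAb (edgeR adjusted p = 5.03e-05) and 2.16 ± 0.27 in fAb (adjusted p = 0.000133). Slc25a18 passed the low-count filter through the treated libraries, so a change was a condition of its being tested. Slc25a22 held 96.4% of the summed TPM of the pair in scramble, 94.9% in oAb and 95.5% in fAb, so the more abundant copy was the same in all groups.

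The aspartate/glutamate carriers export matrix aspartate and take part in the malate-aspartate shuttle. Slc25a12 (aralar) had 95.0, 88.0, 93.7 and 90.1 normalised CPM in scramble, 131, 131, 146 and 147 in oAb and 127, 129, 142 and 144 in fAb. It rose by 0.60 ± 0.08 (log2, SE) in each comparison (edgeR adjusted p = 0.000217 in oAb and 0.000144 in fAb). Its paralog Slc25a13 (citrin) was at 0.07 ± 0.11 in oAb (adjusted p = 0.615) and 0.10 ± 0.10 in fAb (adjusted p = 0.380). The share of Slc25a12 in the summed TPM of the pair was 29.9% ± 2.60 in scramble, 38.1% ± 0.794 in oAb and 37.5% ± 0.445 in fAb (SD, n = 4), with no overlap. Slc25a44, a carrier of branched-chain amino acids, had 35.4 to 40.6 CPM in scramble, 59.5 to 70.6 in oAb and 57.3 to 68.7 in fAb. Its log2 fold change was 0.81 ± 0.10 (SE) in oAb (edgeR adjusted p = 8.99e-05) and 0.81 ± 0.09 in fAb (adjusted p = 6.00e-05). Slc25a15, an ornithine carrier, and Slc25a38, a glycine carrier, did not pass the threshold. Without scramble 3, Slc25a38 did, at 0.39 in oAb (adjusted p = 0.0310) and 0.31 in fAb (adjusted p = 0.0335).

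Of the nucleotide and phosphate exchangers of the ATP group, the ADP/ATP and phosphate carriers did not pass the threshold, while 3 ATP-Mg/phosphate carriers did and moved in opposite directions. Slc25a5 (ENSMUSG00000016319, chromosome X, 36795651 to 36798807) had 940, 917, 1234 and 978 normalised CPM in scramble, 885, 901, 958 and 990 in oAb and 881, 862, 938 and 968 in fAb. The groups overlapped, with scramble 3 the highest library. The log2 fold change was -0.12 ± 0.12 (SE) in each comparison (edgeR adjusted p = 0.414 and 0.399). With upper quartile scaling Slc25a5 passed in fAb, at -0.31 (adjusted p = 0.0452). Of its 50-base words 33.8% also occur in other genes, among them the pseudogene Slc25a5-ps, so its counts are uncertain. None of the 9 sharing genes had a recorded count, which would also hold for a gene absent from the deposited tables.

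Slc25a4 (ENSMUSG00000031633, chromosome 8, 46206797 to 46211284) had 190, 221, 296 and 221 normalised CPM in scramble, 200, 208, 179 and 185 in oAb and 182, 171, 179 and 188 in fAb. The fAb libraries lay below all controls, whereas the oAb libraries overlapped them. The log2 fold change was -0.26 ± 0.14 (SE, adjusted p = 0.137) in oAb and -0.33 ± 0.13 in fAb (edgeR adjusted p = 0.0607). Slc25a3 was at -0.28 ± 0.14 in oAb (adjusted p = 0.113) and -0.35 ± 0.14 in fAb (adjusted p = 0.0573). In fAb both passed without scramble 3, Slc25a4 at -0.19 (adjusted p = 0.0311) and Slc25a3 at -0.19 (adjusted p = 0.0110). Both also passed without scramble 1, Slc25a4 at -0.43 (adjusted p = 0.0142) and Slc25a3 at -0.44 (adjusted p = 0.0222), and Slc25a3 without scramble 2, at -0.41 (adjusted p = 0.0493). With upper quartile scaling both passed in each comparison, Slc25a4 at -0.43 in oAb (adjusted p = 0.0249) and -0.52 in fAb (adjusted p = 0.00843), and Slc25a3 at -0.46 (adjusted p = 0.0213) and -0.54 (adjusted p = 0.00864). With the 3 groups in 1 fit Slc25a3 passed in oAb (-0.29, adjusted p = 0.0470) and fAb (-0.38, adjusted p = 0.0113), and Slc25a4 in fAb (-0.37, adjusted p = 0.0146). Slc25a5 supplied 86.3% of the summed TPM of the ADP/ATP carriers in scramble, 87.3% in oAb and 87.9% in fAb.

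The ATP-Mg/phosphate carriers Slc25a23, Slc25a24 and Slc25a25 are regulated by calcium and set the adenine nucleotide content of the matrix. Slc25a23 and Slc25a24 moved in opposite directions, and their promoter windows are shown for that reason, as the 250 bases before the RefSeq start in GRCm38.p6, read 5′ to 3′ on the strand of the gene. Capitals mark a match to the antioxidant response element, TGACNNNGC, on either strand.
Slc25a23 (chr17:57059864-57060113, minus strand): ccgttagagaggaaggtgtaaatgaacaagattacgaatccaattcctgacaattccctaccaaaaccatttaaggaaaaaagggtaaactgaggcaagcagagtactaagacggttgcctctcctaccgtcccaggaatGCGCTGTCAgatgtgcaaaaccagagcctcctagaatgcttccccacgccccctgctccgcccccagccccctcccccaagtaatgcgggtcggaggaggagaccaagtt
Slc25a24 (chr3:109122899-109123148, plus strand): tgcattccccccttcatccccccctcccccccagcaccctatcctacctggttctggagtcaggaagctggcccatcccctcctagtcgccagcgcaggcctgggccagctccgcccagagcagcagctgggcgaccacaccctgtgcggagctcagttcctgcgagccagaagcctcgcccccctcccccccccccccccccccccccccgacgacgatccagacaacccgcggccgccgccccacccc
The Slc25a23 window is 52.4% G and C and holds the match 110 bases before the start, on the opposite strand. The Slc25a24 window is 72.8% G and C and holds none of the 8 motifs searched. Windows were found for 36 of the 47 carriers, and the antioxidant response element was in 6 of them (16.7%), compared with 10.1% of all 27025 windows. Besides Slc25a23, which fell, it was in Slc25a25 and Slc25a33, which rose, and in Slc25a3, Slc25a5 and Slc25a38, which had no call. The part of any motif in the changes was not tested. The E-box CACGTG was in 6 as well (16.7%), compared with 6.04%. AP-1 (TGANTCA) was in 2 carrier windows (5.56%, all windows 6.85%) and the NRF1 site in 2 (5.56%, all windows 5.11%). The NF-kB consensus was in 1 (2.78%, all windows 4.81%), the interferon-stimulated response element in 1 (2.78%, all windows 3.05%), and the cAMP response element (TGACGTCA) in 1 (2.78%, all windows 1.6%). TTGCATCA, a C/EBP-ATF element, was in 0 carrier windows and 0.825% of all windows. Both strands were searched, and matches of different motifs may overlap.

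Slc25a23 (ENSMUSG00000046329, chromosome 17, 57043711 to 57059863) had 45.4, 45.3, 50.8 and 46.9 normalised CPM in scramble. It had 15.7, 17.8, 18.9 and 19.4 in oAb and 17.0, 17.3, 17.8 and 17.2 in fAb. All treated libraries lay far below the controls, while the oAb and fAb libraries overlapped. The level was 2.62-fold lower in oAb (log2 fold change -1.39 ± 0.10 SE, edgeR adjusted p = 3.28e-06) and 2.65-fold lower in fAb (-1.41 ± 0.08, adjusted p = 9.37e-07).

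Slc25a25 (ENSMUSG00000026819, chromosome 2, 32414487 to 32451445) moved the other way. It had 17.4, 19.0, 21.1 and 19.7 normalised CPM in scramble, 51.1, 55.7, 48.6 and 46.9 in oAb and 51.0, 45.6, 47.7 and 49.1 in fAb. Slc25a25 was 2.63-fold higher in oAb (log2 fold change 1.39 ± 0.10 SE, edgeR adjusted p = 3.29e-06) and 2.57-fold higher in fAb (1.36 ± 0.09, adjusted p = 2.55e-06). Slc25a24 (ENSMUSG00000040322, chromosome 3, 109123149 to 109168457) had 71.7, 65.4, 45.0 and 72.9 normalised CPM in scramble, 115, 104, 110 and 110 in oAb and 109, 115, 110 and 117 in fAb. Scramble 3 was the lowest control, and every treated library was above every control. Slc25a24 rose by 0.79 ± 0.15 (log2, SE) in oAb (edgeR adjusted p = 0.00160) and 0.87 ± 0.14 in fAb (adjusted p = 0.000775).

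Per length, the makeup of the ATP-Mg/phosphate carriers changed more than their sum. The summed TPM of the group was 91.7 ± 20.3 in scramble, 111 ± 4.54 in oAb and 120 ± 5.33 in fAb (SD, n = 4). Slc25a23 held 30.1% ± 5.16 of it in scramble, 8.10% ± 0.838 in oAb and 7.72% ± 0.273 in fAb. Slc25a24 held 61.5% ± 6.70, 76.5% ± 1.49 and 77.8% ± 0.948. Slc25a25 held 8.32% ± 1.56, 15.4% ± 1.36 and 14.5% ± 0.844 in the same order. For each of the 3 carriers the treated libraries lay outside the range of the scramble libraries.

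**Figure D3:**
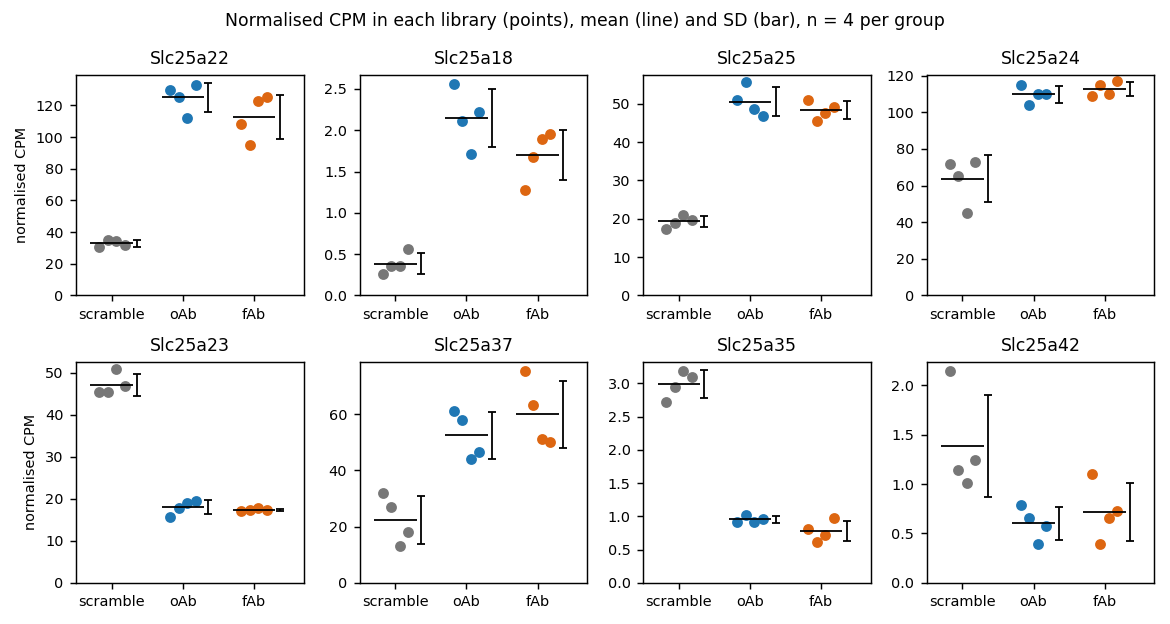
Normalised CPM (vertical axis, from 0) of 8 SLC25 carriers in every library; points are libraries, lines group means and bars SD, n = 4 per group. Slc25a22, Slc25a18, Slc25a25, Slc25a24 and Slc25a37 lie above the controls in all treated libraries and Slc25a23 and Slc25a35 below, while Slc25a42 overlaps in fAb.

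**Figure D4:**
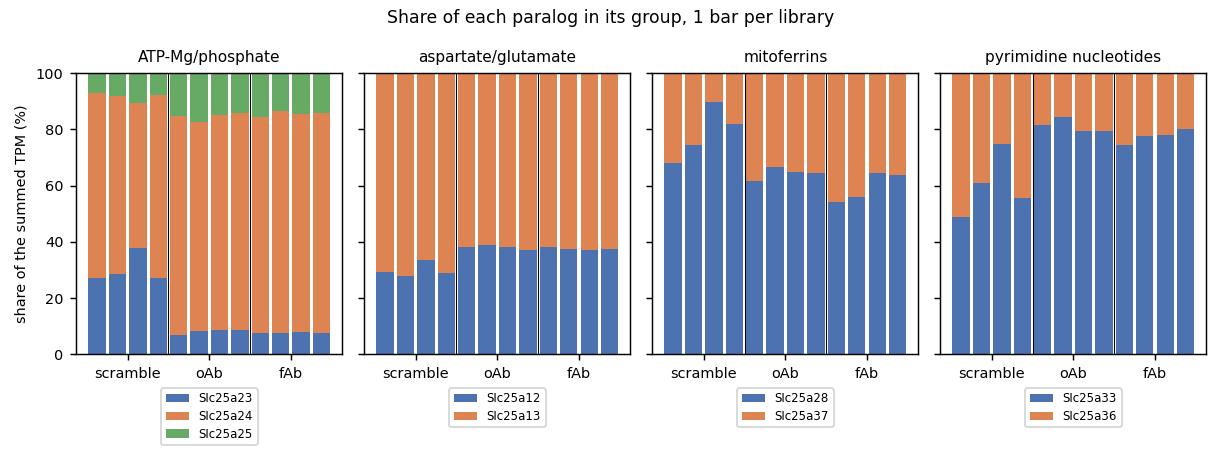
Share of the summed TPM (vertical axis, percent) that each paralog takes in 4 groups of SLC25 carriers, with 1 bar per library. The Slc25a23 share falls from 27.0% to 37.8% in scramble to 6.90% to 8.78% in oAb and 7.44% to 8.09% in fAb.

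The carriers of citrate, dicarboxylates and oxoacids included 4 tested members, of which 1 fell in each comparison. Of all genes 27.0% fell in oAb and 28.8% in fAb. Slc25a1, the citrate carrier, was at 0.03 ± 0.17 (log2, SE) in oAb (edgeR adjusted p = 0.908) and -0.13 ± 0.18 in fAb (adjusted p = 0.558). Across alternatives Slc25a1 ran from -0.15 to 0.35 in oAb, the highest in the set with scramble 1 as the single control. In fAb it ran from -0.32 to 0.29. Slc25a11, the oxoglutarate carrier of the malate-aspartate shuttle, was at -0.01 ± 0.13 in oAb (adjusted p = 0.947) and -0.00 ± 0.13 in fAb (adjusted p = 0.999). Slc25a10, the dicarboxylate carrier, was at -0.34 ± 0.24 in oAb (adjusted p = 0.270) and -0.55 ± 0.25 in fAb (adjusted p = 0.0891), where it passed without scramble 1, at -0.74 (adjusted p = 0.0111). Slc25a10 also passed in fAb with the 3 groups in 1 fit, at -0.58 (adjusted p = 0.0399), and with upper quartile scaling, at -0.73 (adjusted p = 0.0285).

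Slc25a35, an orphan that resembles oxaloacetate carriers of other species (ENSMUSG00000018740, chromosome 11, 68968131 to 68974365), was the member that fell. It had 2.72, 2.95, 3.19 and 3.10 normalised CPM in scramble, 0.920, 1.02, 0.918 and 0.953 in oAb and 0.812, 0.614, 0.721 and 0.973 in fAb. These are 44 to 52 counts per control library and 11 to 16 per treated library, with no overlap. Slc25a35 was 3.11-fold lower in oAb (log2 fold change -1.64 ± 0.17 SE, edgeR adjusted p = 3.11e-05) and 3.71-fold lower in fAb (-1.89 ± 0.19, adjusted p = 2.73e-05). Of its exon bases 31.3% are overlapped on the other strand by Rangrf, and the use of strand in counting is not stated in the labels or headers. Rangrf was at -0.40 ± 0.21 in oAb (adjusted p = 0.138) and -0.55 ± 0.20 in fAb (adjusted p = 0.0434), and its part in the Slc25a35 counts was not tested.

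Among the iron and glutathione carriers, the mitoferrins import iron for haem and iron-sulfur cluster synthesis. Slc25a37 (mitoferrin 1, ENSMUSG00000034248, chromosome 14, 69241848 to 69285112) had 31.9, 26.9, 13.1 and 17.9 normalised CPM in scramble. It had 61.2, 57.8, 44.2 and 46.7 in oAb and 75.5, 63.1, 51.1 and 50.2 in fAb. All treated libraries were above all controls, and the controls ranged from 13.1 to 31.9, with scramble 3 the lowest. The log2 fold change was 1.22 ± 0.26 (SE) in oAb (edgeR adjusted p = 0.00325) and 1.46 ± 0.27 in fAb (adjusted p = 0.00139). Within the set of scramble 1, its single control, and oAb 3 and 4 it was 0.55 (adjusted p = 0.000485), and with the set as a term in fAb it was 0.97 and no longer called (adjusted p = 0.0809). Slc25a37 shares 6.99% of its 50-base words with the predicted gene Gm16867, which had 55 to 136 counts in scramble, 161 to 492 in oAb and 172 to 200 in fAb. How reads were divided between them was not tested.

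The other mitoferrin, Slc25a28, was at 0.15 ± 0.18 (log2, SE) in oAb (edgeR adjusted p = 0.516) and 0.08 ± 0.16 in fAb (adjusted p = 0.712). It passed without scramble 3, at 0.33 in oAb (adjusted p = 0.0423) and 0.26 in fAb (adjusted p = 0.0259). Slc25a37 took 21.5% ± 9.41 of the summed TPM of the mitoferrins in scramble, 35.7% ± 2.07 in oAb and 40.3% ± 5.26 in fAb (SD, n = 4), so Slc25a28 remained the larger part.

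Slc25a39 (ENSMUSG00000018677, chromosome 11, 102402985 to 102407946) had 198, 245, 420 and 287 normalised CPM in scramble, 205, 218, 199 and 220 in oAb and 162, 144, 198 and 199 in fAb. Scramble 3 was the highest library, and scramble 1 lay among the treated ones. The log2 fold change was -0.45 ± 0.20 (SE) in oAb (edgeR adjusted p = 0.0919) and -0.68 ± 0.22 in fAb (adjusted p = 0.0283). The call in fAb was lost without scramble 4, fAb 1 or fAb 2, with adjusted p of 0.0576 to 0.0746, and in oAb it passed without scramble 1, at -0.59 (adjusted p = 0.0194). With the library set as a term the value was -0.12 (adjusted p = 0.790), and within the set of scramble 1, its single control, and the fAb libraries -0.11 (adjusted p = 0.582). Its paralog Slc25a40 was at -0.14 ± 0.24 in oAb (adjusted p = 0.632) and 0.07 ± 0.24 in fAb (adjusted p = 0.826). Slc25a40 held 0.992% of the pair's TPM in scramble, 1.07% in oAb and 1.49% in fAb.

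The nucleotide and cofactor carriers had 9 tested members, of which 2 rose and 4 fell in oAb, and 3 rose and 1 fell in fAb. Of all genes 25.2% rose and 27.0% fell in oAb, and 27.6% rose and 28.8% fell in fAb. Slc25a33 carries pyrimidine nucleotides into mitochondria and had 9.80, 12.5, 15.9 and 10.7 normalised CPM in scramble, 25.4, 25.6, 23.2 and 21.5 in oAb and 19.5, 22.6, 21.2 and 23.0 in fAb. It rose by 0.97 ± 0.16 (log2, SE) in oAb (edgeR adjusted p = 0.000699) and 0.86 ± 0.16 in fAb (adjusted p = 0.00146). Slc25a36, the other pyrimidine nucleotide carrier, had 52.3, 41, 27.4 and 43.3 CPM in scramble, 28.9, 23.9, 30.4 and 28.4 in oAb and 33.8, 32.8, 30.6 and 28.9 in fAb. Scramble 3 lay among the treated libraries. Slc25a36 was at -0.55 ± 0.18 (SE) in oAb (edgeR adjusted p = 0.0297), a call lost without scramble 1, 2 or 4 or oAb 1, 2 or 4 (adjusted p 0.0576 to 0.0846). In fAb it was at -0.34 ± 0.17 (adjusted p = 0.123), and at -0.49 without scramble 3 (adjusted p = 0.00137). Slc25a33 held 60.0% ± 11.0 of the pair's TPM in scramble, 81.3% ± 2.43 in oAb and 77.6% ± 2.28 in fAb (SD, n = 4), and scramble 3, at 74.7%, reached the lowest fAb library at 74.6%.

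Slc25a42 (ENSMUSG00000002346, chromosome 8, 70184340 to 70212305) is a carrier of coenzyme A. It had 2.15, 1.14, 1.01 and 1.24 normalised CPM in scramble, 0.789, 0.655, 0.394 and 0.572 in oAb and 1.10, 0.391, 0.656 and 0.730 in fAb. Scramble 1 stood highest, the oAb libraries were below all controls, and fAb 1 overlapped them. The log2 fold change was -1.21 ± 0.33 (SE) in oAb (edgeR adjusted p = 0.0122) and -0.92 ± 0.35 in fAb (adjusted p = 0.0507). In oAb it was -2.10 within the set whose single control is scramble 1, the highest control (adjusted p = 0.00202), and -0.64 within the other set, where the call was lost (adjusted p = 0.180). In fAb it passed without scramble 3, at -1.04 (adjusted p = 0.0284), and without fAb 1, at -1.20 (adjusted p = 0.0270). With 6 to 12 counts in the oAb libraries it was tested mainly through the controls. Slc25a16, also implicated in coenzyme A transport, was at -0.50 ± 0.16 in oAb (adjusted p = 0.0234) and -0.30 ± 0.15 in fAb (adjusted p = 0.123). In oAb the Slc25a16 call was lost without scramble 1, 2 or 4 or oAb 3 or 4 (adjusted p 0.0551 to 0.0639). In fAb Slc25a16 passed without scramble 3, at -0.42 (adjusted p = 0.00245).

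The smaller changes of this class concern vitamin-derived cofactors. Slc25a32, a folate carrier, rose by 0.53 ± 0.18 (log2, SE) in oAb (edgeR adjusted p = 0.0365) and 0.57 ± 0.18 in fAb (adjusted p = 0.0252). It had 25.8, 26.3, 14.1 and 25.3 CPM in scramble and 31.1 to 35.6 in treated libraries. The oAb call was lost without scramble 4 or any one oAb library (adjusted p 0.0523 to 0.0843) and the fAb call without fAb 1 or 2 (adjusted p 0.0552 and 0.0761). With the library set as a term the call was lost in oAb (0.51, adjusted p = 0.0580) and in fAb (0.41, adjusted p = 0.326), and with upper quartile scaling likewise (adjusted p = 0.115 and 0.0982). With the set as a term, fAb values rest on scramble 1 as the single control of their set. Scramble 3 was the lowest control for Slc25a32. Slc25a51, the NAD carrier of mitochondria, fell by 0.28 ± 0.10 in oAb (adjusted p = 0.0403) and by 0.27 ± 0.08 in fAb (adjusted p = 0.0219). It had 46.9 to 56.3 CPM in scramble, 38.5 to 46.4 in oAb and 42.2 to 43.3 in fAb. Although these ranges did not overlap, leaving out any library but scramble 3 ended the oAb call (adjusted p 0.0568 to 0.121), and leaving out scramble 4 or any fAb library ended the fAb call (adjusted p 0.0510 to 0.0669). Both calls of Slc25a51 were also lost with the library set as a term (adjusted p = 0.0560 in oAb and 0.148 in fAb). Slc25a26, the S-adenosylmethionine carrier, was at -0.39 ± 0.17 in fAb (adjusted p = 0.0742) and passed there without scramble 1, at -0.51 (adjusted p = 0.0187).

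The carnitine carriers and the uncoupling-protein-like carriers that the symbol rule includes had no call in either comparison. Ucp2, an uncoupling protein outside that rule, is given with the lists below. Slc25a20, which brings acylcarnitines into the matrix, was at 0.13 ± 0.13 (log2, SE) in oAb (edgeR adjusted p = 0.419) and 0.12 ± 0.13 in fAb (adjusted p = 0.433). Without scramble 3 it passed, at 0.25 in oAb (adjusted p = 0.0159) and 0.26 in fAb (adjusted p = 0.0126). Slc25a30 passed in the other direction without scramble 3, at -0.36 in oAb (adjusted p = 0.000513) and -0.18 in fAb (adjusted p = 0.0311). Slc25a45 passed in oAb without it at -0.31 (adjusted p = 0.0216) and without scramble 4 at -0.33 (adjusted p = 0.0480). Of the orphan members Slc25a43 rose, from 3.14 to 4.16 CPM in scramble to 6.03 to 8.41 in oAb and 5.51 to 6.98 in fAb. Its log2 fold change was 0.89 ± 0.17 in oAb (adjusted p = 0.00145) and 0.74 ± 0.15 in fAb (adjusted p = 0.00229). Slc25a46, an outer-membrane member that acts in mitochondrial dynamics, passed only without scramble 3, at -0.27 in oAb (adjusted p = 0.0141) and -0.33 in fAb (adjusted p = 0.000838), among the fits that leave out 1 library.

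The preparations were then compared with each other. In fAb against oAb, 0 of 37 carriers were called by edgeR's quasi-likelihood test, as were 0% of all 10878 genes. DESeq2 and limma voom also called 0 carriers. At an unadjusted p under 0.05 there were 3 carriers, beside 12.8% of all genes, and the groups did not overlap for 4 carriers, beside 6.31% of all genes. The 3 at an unadjusted p under 0.05 were Slc25a30 (log2 fold change 0.15 ± 0.05 SE), Slc25a39 (-0.26 ± 0.10) and Slc25a53, an orphan (0.57 ± 0.24), each with an edgeR adjusted p of 0.375. For Slc25a22 the difference was -0.15 ± 0.09 (adjusted p = 0.461) and for Slc25a23 -0.05 ± 0.08 (adjusted p = 0.788). Across the tested carriers the difference ran from -0.34 for Slc25a18 to 0.57 for Slc25a53, with a median of -0.04, where all genes had -0.01. The oAb libraries are split between the library sets whereas all fAb libraries are in 1 of them.

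Genes that work with the carriers were examined as lists. For comparison, 25.2% of all genes rose and 27.0% fell in oAb, and 27.6% rose and 28.8% fell in fAb. Of the relatives outside the symbol rule 2 of 3 tested fell in each comparison. Ucp2, an uncoupling protein whose symbol falls outside the rule, was at -0.95 ± 0.17 (log2, SE) in oAb (edgeR adjusted p = 0.00138) and -1.12 ± 0.19 in fAb (adjusted p = 0.000832). Across alternatives in fAb its adjusted p reached 0.0539. Mtch1, a carrier homologue of the outer membrane, was at -0.49 ± 0.17 in oAb (adjusted p = 0.0337) and -0.57 ± 0.17 in fAb (adjusted p = 0.0194), with adjusted p of up to 0.367 and 0.430 across alternatives. Of the import machinery 3 of 16 rose and 0 fell in oAb, and 3 rose and 2 fell in fAb. The risers were the receptor gene Tomm70a (0.30 ± 0.08 in each comparison), the chaperone gene Timm8a1 (0.42 ± 0.08 in oAb and 0.41 ± 0.08 in fAb) and Timm29, a TIM22 subunit (0.24 ± 0.08 and 0.29 ± 0.08), all smaller than most carrier changes called. Under some alternatives each lost a call, with highest adjusted p in oAb of 0.196, 0.0642 and 0.525 in that order. The members lower in fAb were Timm10b (-1.21 ± 0.34, adjusted p = 0.0134) and Tomm6 (-0.91 ± 0.32, adjusted p = 0.0358), with adjusted p of up to 0.939 and 0.983 across alternatives.

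Other mitochondrial transporters moved in both directions, with 4 of 21 higher and 4 lower in oAb and 3 higher and 5 lower in fAb. Over all genes 25.2% rose and 27.0% fell in oAb, and 27.6% rose and 28.8% fell in fAb. Sfxn3, a serine transporter, fell by 1.68 ± 0.12 (log2, SE) in oAb (edgeR adjusted p = 3.08e-06) and by 1.47 ± 0.09 in fAb (adjusted p = 9.45e-07). Abcb10, an inner-membrane transporter linked to haem synthesis, fell by 0.71 ± 0.10 in oAb (adjusted p = 0.000261) and by 0.53 ± 0.09 in fAb (adjusted p = 0.00101). Sfxn2 rose by 0.50 ± 0.10 in oAb (adjusted p = 0.00244) and by 0.62 ± 0.10 in fAb (adjusted p = 0.000449). The other calls of this list were Vdac2 and Vdac3 higher in both comparisons, Mcub higher in oAb, Mpc2 and Abcb8 lower in both, and Letm1 lower in fAb. Under some alternatives these lost a call, with adjusted p in oAb of up to 0.345 for Vdac2, 0.129 for Vdac3, 0.192 for Mcub and 0.0783 for Mpc2. In fAb the adjusted p reached 0.300 for Vdac2, 0.366 for Mpc2, 0.0600 for Abcb8 and 0.697 for Letm1. Of 15 ATP synthase subunits 0 rose, while 1 fell in oAb and 3 in fAb, with a list median of -0.31 and -0.33. Atp5g2 fell in both (-0.49 ± 0.18 and -0.57 ± 0.19, adjusted p = 0.0459 and 0.0313), with adjusted p of up to 0.132 and 0.450 across alternatives. Atp5d and Atp5e were the others in fAb, with adjusted p of up to 0.855 and 0.949 across alternatives.

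Enzymes of the malate-aspartate shuttle and of citrate use held the widest changes of these lists, with 4 of 13 higher and 3 lower in oAb and 5 higher and 2 lower in fAb. The shares over all genes were 25.2% higher and 27.0% lower in oAb, and 27.6% higher and 28.8% lower in fAb. The genes named below, which include the widest changes, are not enzymes of the shuttle itself. Acod1, which makes itaconate from a citrate cycle intermediate, had 91 to 153 counts per scramble library and 74828 to 101026 in oAb. It rose by 9.70 ± 0.23 (log2, SE) in oAb (edgeR adjusted p = 2.49e-09) and 9.70 ± 0.21 in fAb (adjusted p = 1.78e-09). Me1, the cytosolic malic enzyme, rose by 1.5 ± 0.10 in oAb (adjusted p = 1.72e-06) and 1.65 ± 0.10 in fAb (adjusted p = 8.86e-07). Idh2, the matrix isocitrate dehydrogenase, fell by 0.51 ± 0.09 in oAb (adjusted p = 0.00129) and by 0.58 ± 0.09 in fAb (adjusted p = 0.000438). Acly, which cleaves exported citrate, was at 0.62 ± 0.13 in oAb (adjusted p = 0.00244, up to 0.0513 across alternatives) and 0.68 ± 0.12 in fAb (adjusted p = 0.00105, up to 0.0569).

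In haem and iron-sulfur synthesis, which uses the iron brought in by mitoferrins, 1 of 12 genes rose and 7 fell in each comparison, where 27.0% of all genes fell in oAb and 28.8% in fAb. Alas1, the rate-limiting enzyme of haem synthesis outside red cells, had 614 to 666 counts per scramble library, 3206 to 3763 in oAb and 3601 to 4026 in fAb. It rose by 2.55 ± 0.12 (log2, SE) in oAb (edgeR adjusted p = 1.25e-07) and 2.58 ± 0.12 in fAb (adjusted p = 1.90e-07). Urod, a later enzyme, was at -0.81 ± 0.18 in oAb (adjusted p = 0.00413) and -0.89 ± 0.19 in fAb (adjusted p = 0.00292). Fech, which inserts the iron, was at -0.42 ± 0.08 in oAb (adjusted p = 0.00250) and -0.41 ± 0.08 in fAb (adjusted p = 0.00207). Calls were lost under some alternatives, with adjusted p in oAb of up to 0.0705 for Urod, 0.0768 for Fech, 0.204 for Nfs1, 0.176 for Alad, 0.294 for Uros and 0.133 for Ppox. In fAb the adjusted p reached 0.0589 for Urod, 0.0863 for Nfs1, 0.433 for Alad and 0.0905 for Ppox, while Fech kept its call in every alternative run. The list median was -0.40 in oAb and -0.38 in fAb, where all genes had -0.07 and -0.04. In fAb against oAb 0 genes of any of these lists were called.

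**Figure D5:**
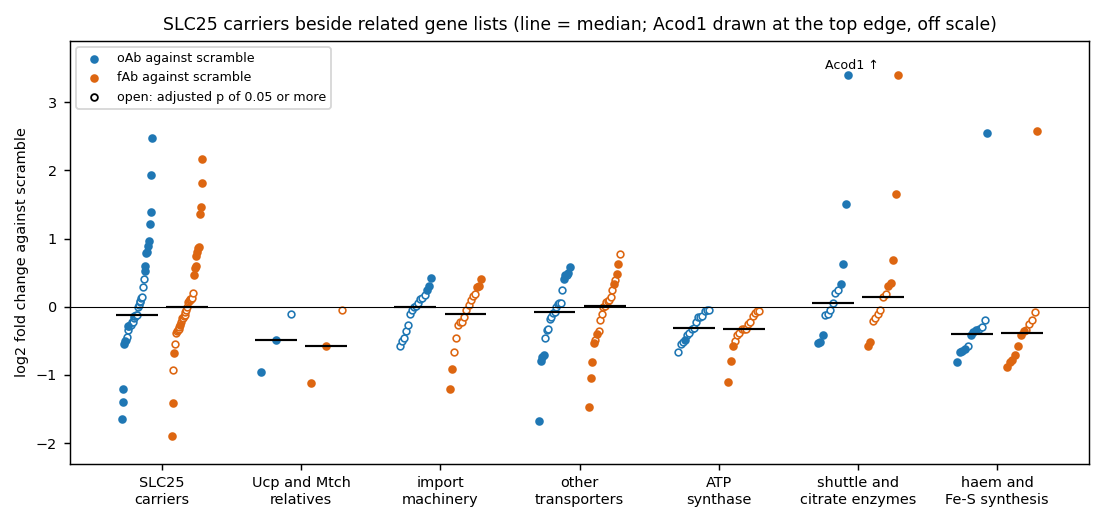
Log2 fold change against scramble (vertical axis) of each tested gene of the SLC25 family and of 6 lists of related genes; each point is a gene, filled where the adjusted p is under 0.05, and lines are medians. The SLC25 carriers spread from -1.89 to 2.47 around medians near 0, most genes of haem and iron-sulfur synthesis lie below 0 with Alas1 above, and Acod1 is off scale.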

How the data were processed

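RNA from 12 samples was taken by spin column and 2 ug of total RNA was made into libraries with a TruSeq stranded mRNA kit, per the labels' protocols. Per the submitters' processing notes the genome build was mm10, and per the file headers reads had been trimmed. Neither aligner nor counter is named. The authors deposited whole-number counts per gene, RPKM (scaled by length and depth) and TPM in 2 tables, per the file headers. The columns the authors named CPM, a signal relative to a normalised library size, were not used, nor were their own comparisons.

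Counts were tested in edgeR 4.0.16 (R 4.3.3), on the 8 libraries of each comparison, with filterByExpr (minimum count 10), TMM scaling and a robust quasi-likelihood F test, two-sided. P-values were adjusted by Benjamini-Hochberg over all genes tested, at 0.05. Normalised CPM used TMM over all 12 libraries. Totals of 13638721 to 18124419 counts set the precision. Levels between genes are in TPM. The test was checked on simulated counts. In oAb against scramble it recovered 19.1% of 1.5-fold, 70.4% of 2-fold and 95% of 4-fold changes, with 5.51% of calls false. In fAb against scramble these were 34.9%, 86.1% and 98.4%, with 2.65% false. Changes near 1.5-fold without a call may thus have been missed. Far fewer genes changed in the simulation than were called in the data, so recovery may differ there. GENCODE M21 served for coordinates, overlaps and shared 50-base words, and RefSeq (GRCm38.p6) for promoter windows. No duplicated library was found (chi-square per degree of freedom 2.97 to 143 between replicates).

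Some genes that the rules include are counted but not reported here by name. The carriers, lists and library sets were chosen with earlier results of these data known. The sets split libraries by a Timm23 share above or below 50% of the counts of Timm23 and Gm10273, and no label gives a batch. Values in every library are given for carriers called against scramble with an absolute log2 fold change of at least 1, and for the 3 highest by TPM in scramble. Other called carriers and members of the fixed paralog groups have their fold changes, and some have library values chosen after they were seen. Each list of related genes names up to 4 members of smallest adjusted p, and further called members of the import machinery, the other transporters, ATP synthase and haem synthesis were named after their values were seen. Alternatives were other tools (DESeq2 1.42.0 and voom in limma 3.58.1), other scaling (upper quartile or DESeq2 size factors), other filters (none, or a mean CPM of at least 2), 1 fit over all 12 libraries, a replicate block, the library set as a term, a threshold of 0.01, RPKM in place of TPM, leaving out each library, and, added after seeing the data, a fit within each set. Where such a fit leaves 1 sample in a group, that sample is assumed to vary like the others.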

Additional observations from a re-analysis of the deposited data

How the results depend on the processing

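Of the carriers called, 11 of 16 in oAb and 10 of 15 in fAb were called under every alternative in which they were tested, and none reversed. Slc25a18 is among them, but it passed the low-count filter through the treated libraries, so a change was a condition of its being tested. It was not tested at a mean of at least 2 CPM. The count of carriers lower in oAb, 6, became 12 with upper quartile scaling, 10 within the Gm10273 set, 2 within the Timm23 set and 2 at a threshold of 0.01. It ran from 3 to 9 when 1 library was left out, with 3 without scramble 2 or oAb 4. The count lower in fAb, 4, became 14 with upper quartile scaling, 10 with all 12 libraries, 8 within the Gm10273 set and 2 at a threshold of 0.01. It ran from 2 to 11 when 1 library was left out, with 2 without scramble 4 or fAb 2, 8 without scramble 1 and 11 without scramble 3. Carriers higher numbered 9 to 14 in oAb and 10 to 14 in fAb when 1 library was left out. The within-set fits test few libraries, and the cause of these shifts was not tested.

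The ratio of the summed level to scramble was 0.845 in oAb and 0.859 in fAb by TPM, and 0.800 and 0.794 by RPKM. Replicate numbers were not taken to pair the libraries, since same-numbered libraries had correlations of deviations from -0.25 to 0.0755 in oAb against scramble, 0.0884 to 0.198 in fAb against scramble and -0.231 to 0.242 in fAb against oAb, and not every library correlated best with its own number. With a replicate block 9 carriers were higher and 4 lower in oAb, 11 higher and 5 lower in fAb, and 0 in fAb against oAb. With the block Slc25a32 (adjusted p = 0.0632), Slc25a36 (adjusted p = 0.0695) and Slc25a51 (adjusted p = 0.0578) were not called in oAb. With 5 to 9 counts in its scramble libraries, Slc25a18 is the called carrier with the fewest control counts.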
